A study of Homo sapiens with 16 samples.

Results

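The 10 genes described here encode growth factor receptor tyrosine kinases: Egfr, Erbb2 and Erbb3 of the ERBB family, Met, Fgfr1 and Fgfr2, Pdgfra and Pdgfrb, Igf1r and Kit. They were chosen by name from this receptor class and not by their values, though earlier results of these data were known. They are 10 of the 32285 genes in the count tables. Their UMIs (unique molecular identifiers, each marking 1 captured RNA molecule) were summed over the cells of each deposited cell label and expressed per 1000000 UMIs of those cells (CPM), so all comparisons are of 1 gene between cell labels and none are between genes.

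Receptors of this class cross the cell membrane once. A ligand brings receptor molecules together, the kinase part inside the cell phosphorylates the partner, and adaptors such as GRB2 and the PI3-kinase subunits bind there and pass the signal to the RAS-ERK and AKT pathways. In the mammary gland EGFR, FGFR2 and KIT are known from normal epithelial cells of the basal or luminal layer, whereas the PDGF receptors are best known from fibroblasts and pericytes.

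The tumors were murine-derived syngeneic transplants (MDST) in female FVB mice, purchased at 6 weeks of age, that received 25 mm3 chunks of LPA1-T22 (T22) or LPA1-T127 (T127) in the mammary fat pad. Both tumor lines came from transgenic mice with the LPA1 receptor in mammary epithelium, T22 being sensitive and T127 resistant to PARP inhibitors. In the short-term experiment mice received vehicle or olaparib, a PARP inhibitor, at 50 mg/kg daily over 4 or 8 days (4 pools of T22 tumors and 4 pools of T127 tumors), and in the long-term experiment the same over 20 days, with the lines carried alone or on opposite sides of 1 mouse (8 pools). Each pool mixed hashtagged tumors of both treatments. The tumor of origin of single cells was not known in the tables analysed, so vehicle and olaparib, and single strain and co-transplanted tumors, were not compared, each experiment was treated as 1 sample, and no test across samples was possible. Each of T22 and T127 is a single transplanted tumor line, so a difference between T22 and T127 cannot be told apart from a difference between these particular tumors.

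The long-term pools held 30845 cells, the short-term T22 pools 15094 and the short-term T127 pools 8007, with 34755906 to 55600377 UMIs per pool. The median cell had 3105 to 11712 UMIs in the long-term pools, 7730 to 8528 in the short-term T22 pools and 22712 to 26017 in the short-term T127 pools. In the long-term experiment 3 of 28 pairs of pools shared over 100 cell barcodes, the most being 3939 between pools 1 and 2, and in the other 25 pairs 1 to 8 were shared. Each barcode was therefore kept once, at its deepest copy, which left 25723 cells and removed 5122 copies. All 80 long-term log2 ratios moved by less than the spread between pools when the copies were kept.

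The labels name the T127 malignant cells Malign_0 and Malign_1 and the T22 malignant cells Malign_2 and Malign_3, and the short-term T22 pools held none of the first pair and the short-term T127 pools none of the second. Malign_2 carried basal genes in the long-term pools (Krt5 916 CPM, Krt14 1734, Trp63 87.2) and Malign_3 carried luminal keratins (Krt8 1999.8, Krt18 3022) with Epcam at 2779.7 CPM. The T127 labels had Krt8 at 735 and 480.2 CPM but Epcam at only 3.30 and 5.87. Of the 8 fibroblast markers only Dcn (4305 and 4324 CPM) passed 20 CPM in them, and Col1a1 stood at 3.92 and 6.53 CPM against 5517 in i_CAF. Labels i_CAF, my_CAF and Endo.cells mark cancer-associated fibroblasts of 2 kinds and endothelial cells. All 8 fibroblast genes were found in i_CAF and all 8 endothelial genes in Endo.cells. The my_CAF label held pericyte genes (Rgs5 4203, Higd1b 1618 and Kcnj8 802 CPM) beside Col1a1 at 1208 and Dcn at 124. The 9 basal marker genes, which include the contractile genes Acta2, Myh11 and Cnn1, summed to 7753 CPM in it. Of these Krt17, Trp63, Oxtr and Igfbp2 were at 0. Its name therefore covered the genes of its cells only in part.

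**Figure D1:**
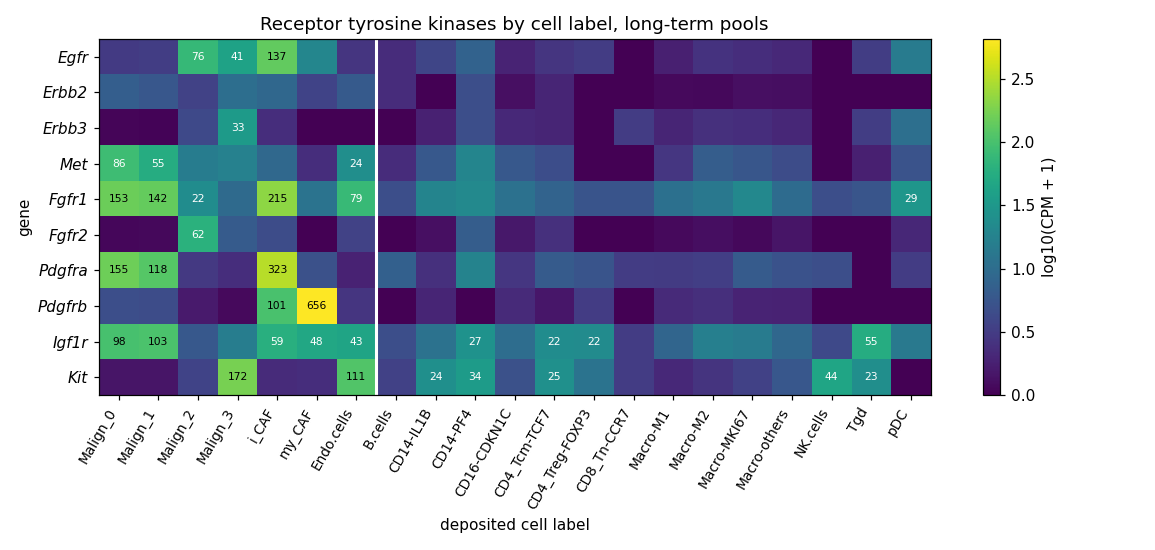
Level of each receptor in every deposited label of at least 50 cells in the long-term pools, as log10(CPM + 1) in color, with the CPM printed where it reached 20. The white line separates malignant, fibroblast and endothelial labels from immune labels. Among malignant labels, Egfr was high in both of T22, Erbb3 and Kit in Malign_3 and Fgfr2 in Malign_2. Met, Fgfr1, Pdgfra and Igf1r were high in both T127 malignant labels.

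The malignant cells of T22 and T127 carried different receptors. In the long-term experiment 4 of the 10 receptors (Egfr, Erbb3, Fgfr2 and Kit) were at least 2-fold higher in T22 than in T127 malignant cells, with no overlap of the pools, and 5 (Met, Fgfr1, Pdgfra, Pdgfrb and Igf1r) were lower, leaving only Erbb2 level. Among all 14931 genes with at least 20 UMIs in these cells, 20.9% were higher and 16.9% lower by the same rule, so differences of this kind were common between the lines. The median log2 ratio was -0.86 over the receptors and 0.06 over all genes tested. In the short-term experiment the same 4 were higher and 6 lower, Erbb2 being the addition, against 26.8% higher and 21.3% lower of 16024 genes. The ratios are given below with 95% intervals that cover counting error only. The pools are not known to come from separate animals, so their range is a spread between pools only. Long-term pools 1 to 3 shared many barcodes, so they are not known to be separate libraries either.

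**Figure D2:**
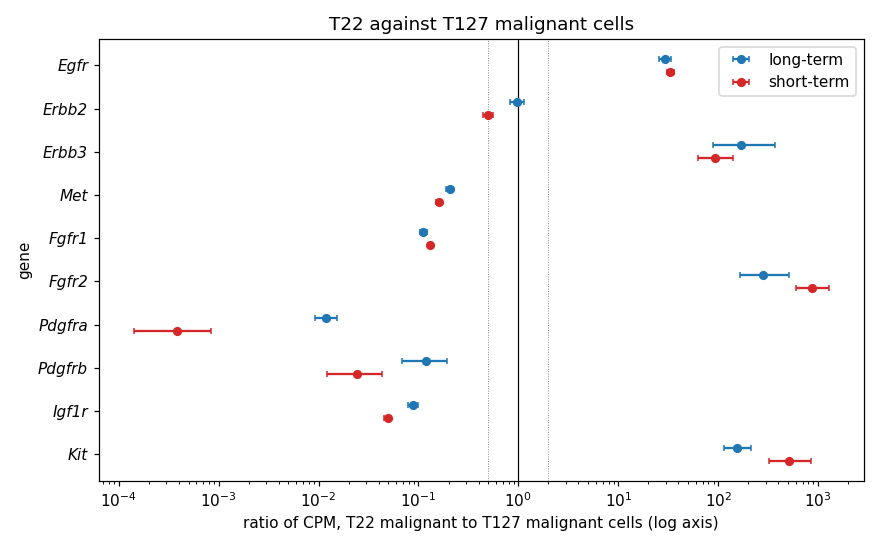
Ratio of CPM, T22 to T127 malignant cells, on a log axis, in the long-term and short-term experiments. Bars are 95% intervals for counting error, the solid line marks equal levels and the dotted lines a 2-fold difference. All receptors but Erbb2 lie on the same side by more than 2-fold in both experiments.

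Egfr encodes the receptor of EGF, TGF-alpha and amphiregulin, and its RNA was 29.4-fold higher in T22 than in T127 malignant cells (95% interval 25.5 to 34.0). Malign_2 had 65.6 CPM in its lowest long-term pool, 76.0 at the median and 101 in its highest, and Malign_3 had 29.3, 41.1 and 58.5 CPM. Malign_0 did not pass 2.70 CPM and Malign_1 did not pass 4.52, so no pool of a T127 label reached a pool of a T22 label. The highest level lay outside the tumor cells, in i_CAF, at 86.4, 141 and 175 CPM, which overlapped Malign_2 but not Malign_3. In the short-term T22 pools Egfr stood at 142, 161, 155 and 148 CPM in Malign_2, at 80.9, 112, 89.8 and 91.4 CPM in Malign_3 and at 163, 207, 181 and 188 CPM in i_CAF. The order was kept there and the ranges of the 3 labels did not overlap. The i_CAF of the short-term T127 pools had 202, 197, 138 and 176 CPM, a level within the range of counting error of that in T22 pools (ratio T22 to T127 1.04, 0.924 to 1.18), while the T127 malignant cells beside them had 4.40 CPM.

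Erbb2 encodes the ERBB receptor that binds no ligand and serves as partner of the others, and its long-term ratio was the nearest to 1 of the 10. T22 malignant cells had 5.37 CPM and T127 malignant cells 5.49 CPM in the long-term pools (ratio 0.978, 0.830 to 1.15), with pools at 2.69 to 6.69 and at 4.00 to 7.53 CPM. Within T22 it was 3.66-fold higher in Malign_3 (9.50 CPM, pools 5.93 to 13.1) than in Malign_2 (2.59 CPM, pools 1.02 to 3.90), and these ranges did not overlap. Sums over both T22 labels therefore depended on how many cells of each were present. In the short-term experiment, in which Malign_3 made up 218 of the 1954 T22 malignant cells, Erbb2 was 2.01-fold lower in T22 (6.91 CPM against 13.9). The ratio dropped below 2-fold when T22 pool 2, T22 pool 3 or T127 pool 3 was left out, and the receptors lower in T22 then numbered 5.

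Erbb3 encodes the ERBB member with little kinase activity that binds neuregulins, and it marked Malign_3. Its level there was 27.3 CPM in the lowest long-term pool, 31.8 at the median and 40.9 in the highest, against 1.86, 3.26 and 4.24 CPM in Malign_2, a 10.4-fold difference (8.18 to 13.5). Only 9 UMIs of Erbb3 were found in all 4603 long-term T127 malignant cells (0.0898 CPM), which put the T22 to T127 ratio at 170.0 (88.9 to 374). In the short-term T22 pools Malign_3 stood at 73.4, 89.8, 66.2 and 73.7 CPM and Malign_2 at 6.83 CPM over all pools. No endothelial cell and no my_CAF cell of the long-term pools held an Erbb3 UMI.

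Met encodes the receptor of hepatocyte growth factor, and its RNA was 4.88-fold lower in T22 than in T127 malignant cells (4.48 to 5.31). Malign_0 had 72.0, 83.9 and 96.5 CPM in its lowest, median and highest long-term pool and Malign_1 had 45.9, 57.2 and 67.1, so that these T127 labels did not overlap although they differed by only 1.56-fold. Malign_2 (11.7 to 16.0 CPM) and Malign_3 (11.9 to 18.8 CPM) overlapped each other. In the short-term T127 pools Malign_0 had 192, 188, 194 and 186 CPM and Malign_1 had 144, 136, 147 and 132 CPM, again apart. Endothelial cells ranked next, with 23.7 CPM in the long-term pools (9.29 to 33.2) and 22.1 in the short-term T127 pools. The i_CAF had 7.93 CPM, and both fibroblast labels together were 9.79-fold below T127 malignant cells.

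Fgfr1 and Fgfr2, both receptors of fibroblast growth factors, lay on opposite sides. Among malignant cells Fgfr2 was found mainly in Malign_2, at 52.2, 62.7 and 77.8 CPM in its lowest, median and highest long-term pool. Malign_3 had 5.51 CPM (11.2-fold less) and T127 malignant cells held 14 UMIs in all (0.140 CPM), which gave a T22 to T127 ratio of 279.9 (166 to 513). Malign_2 had 159, 176, 154 and 160.2 CPM of Fgfr2 in the short-term T22 pools, 25.1-fold more than Malign_3, and the T22 to T127 ratio was 862 (604 to 1279).

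Fgfr1 was 8.93-fold lower in T22 than in T127 malignant cells (8.26 to 9.67). Its long-term pools read 119, 152 and 189 CPM (lowest, median, highest) in Malign_0, 115, 148 and 197 CPM in Malign_1 and 148, 213 and 273 CPM in i_CAF, and the ranges of these 3 labels overlapped over the 8 pools. Within a pool i_CAF was above Malign_0 in 8 of 8 pools (1.04 to 1.59-fold) and above Malign_1 in 8 of 8 (1.11 to 1.66-fold). Malign_2 had 16.0 to 34.3 CPM and Malign_3 had 6.62 to 11.1, a 2.66-fold difference without overlap, in the same direction as Fgfr2. Endothelial cells had 78.9 CPM (37.0 to 122). In the short-term T127 pools Malign_1 stood at 329, 352, 362 and 346 CPM and i_CAF at 395, 383, 320 and 284 CPM, so the ranges overlapped.

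**Figure D3:**
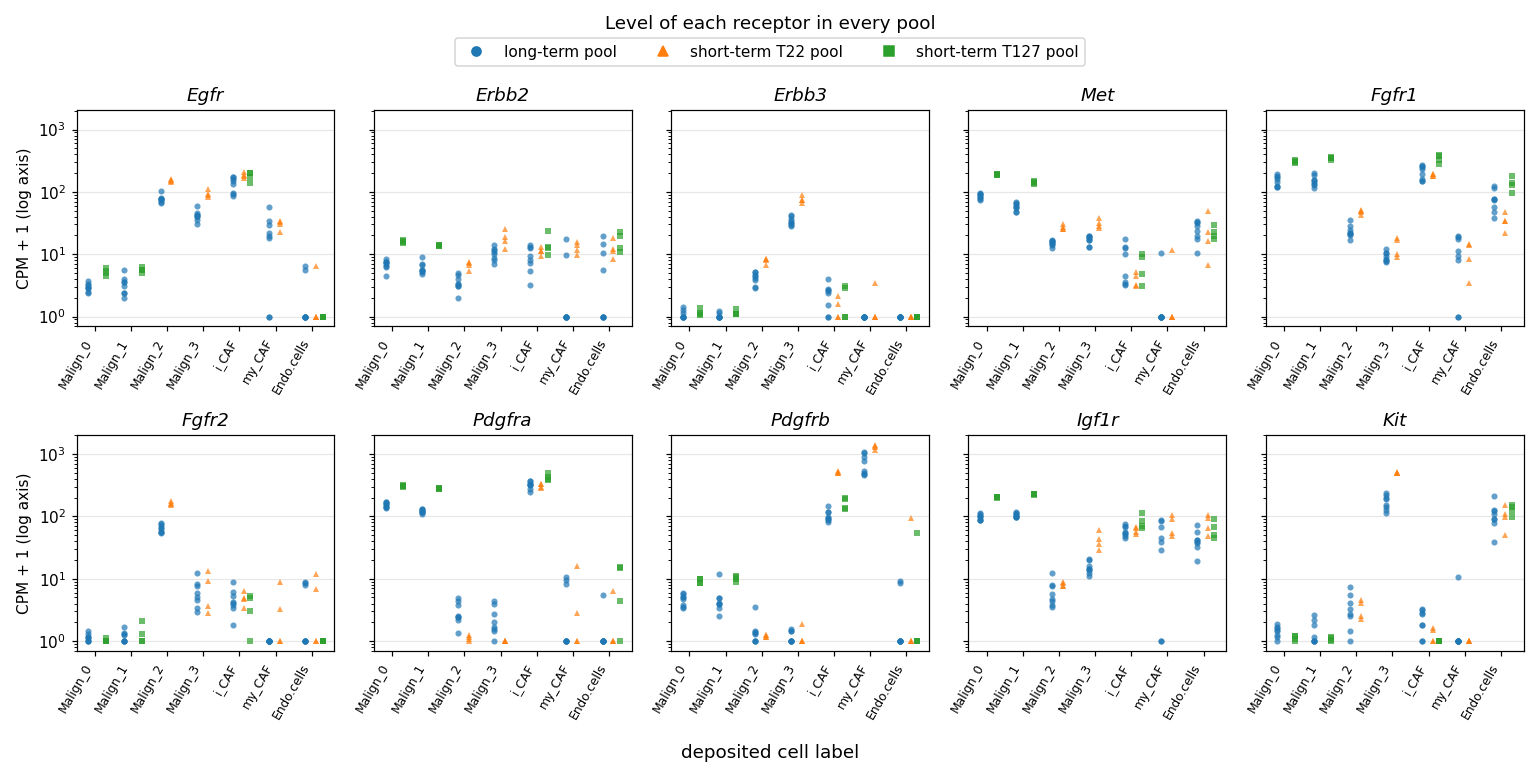
CPM + 1 of each receptor on a log axis in every pool, by deposited label. Circles are the 8 long-term pools, triangles the 4 short-term T22 pools and squares the 4 short-term T127 pools, shown for labels present in them. For Egfr, Met, Fgfr1, Pdgfra and Igf1r no pool of the T22 labels Malign_2 and Malign_3 overlaps a pool of the T127 labels Malign_0 and Malign_1.

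Pdgfra, the receptor of PDGF-A and PDGF-C dimers that is used as a fibroblast marker, was abundant in T127 malignant cells. Malign_0 had 138, 153 and 170.0 CPM in its lowest, median and highest long-term pool, Malign_1 had 109.8, 119 and 129 CPM, and i_CAF had 245, 323 and 376 CPM. None of these ranges overlapped, and i_CAF with my_CAF exceeded T127 malignant cells 2.16-fold (2.08 to 2.24). T22 malignant cells held 66 UMIs (1.68 CPM), 83.5-fold less than T127 (65.6 to 108). In the short-term pools Malign_0 stood at 306, 299.8, 318 and 312 CPM and T22 malignant cells held 6 UMIs in all (0.113 CPM), a ratio of 2601 (1195 to 7088). As given above, Col1a1 and most other fibroblast genes were near 0 in the T127 malignant labels while Dcn was not.

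Pdgfrb, the receptor of PDGF-B that marks pericytes and fibroblasts, was highest in the fibroblast labels. The my_CAF label had 457, 652 and 1081 CPM in its lowest, median and highest long-term pool and i_CAF had 80.7, 94.9 and 148 CPM, a 6.52-fold difference (5.85 to 7.27). T127 malignant cells had 3.63 CPM (37.7-fold below both fibroblast labels together) and T22 malignant cells 0.433 CPM (317-fold below). Both levels were low, and the T22 to T127 ratio within a long-term pool ran from 0.0 to 0.71. In the short-term T22 pools the my_CAF stood at 1297, 1415, 1167 and 1353 CPM and the i_CAF at 501, 531, 508 and 497 CPM. The i_CAF of the short-term T127 pools had 198, 128, 189.6 and 134 CPM, all below those of the T22 pools, and this comparison is taken up below.

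Igf1r encodes the receptor of IGF1 and IGF2, and it was 11.4-fold lower in T22 than in T127 malignant cells (10.2 to 12.7). Malign_0 had 85.1, 98.3 and 114 CPM in its lowest, median and highest long-term pool and Malign_1 had 96.3, 103 and 118, which overlapped. Malign_2 had 2.48, 4.17 and 11.3 CPM and Malign_3 had 9.88, 13.4 and 19.9 CPM. This 2.88-fold difference (2.30 to 3.63) was left uncalled because pool 6 of Malign_2 overlapped Malign_3, and the ranges separated when pool 6 was left out, which made 4 receptors lower in Malign_2. The labels were also apart within pools 1 to 4 (2.72 to 6.56 against 9.88 to 13.6 CPM) and within pools 5 to 8 (2.48 to 11.3 against 13.2 to 19.9 CPM), again with 4 receptors lower, and Igf1r was lower in Malign_2 in 8 of 8 pools. In the short-term T22 pools Malign_3 stood at 35.6, 59.2, 27.9 and 42.6 CPM against at most 7.92 in Malign_2. The i_CAF (59.1 CPM), my_CAF (48.5 CPM) and endothelial cells (43.0 CPM) of the long-term pools had overlapping ranges.

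Kit encodes the receptor of stem cell factor (Kitl) and was found, among malignant cells, mainly in Malign_3. Its long-term pools had 111, 171 and 241 CPM (lowest, median, highest) there, while Malign_2 did not pass 6.37 CPM, a 64.3-fold difference (50.1 to 83.9). T127 malignant cells held 46 UMIs (0.459 CPM), 154-fold less than T22 (115 to 211). Malign_3 had 492, 524, 502 and 501 CPM in the short-term T22 pools and Malign_2 had 2.31 CPM over all pools. Mast cells carry Kit too, and the 8 mast cell genes examined summed to 2.63 to 433 CPM over the long-term pools of Malign_3, with Mcpt4 at 34.1 CPM and Cpa3 at 5.96 CPM in all pools together. In the short-term Malign_3 cells 7 of the 8 were at 0 and Ms4a2 at 0.191 CPM. Kit was next highest in Endo.cells in the long-term experiment, with 37.2, 99.6 and 214 CPM in the pools, overlapping Malign_3. Endo.cells had 98.6, 49.2, 110.2 and 150.1 CPM in the short-term T22 pools, below Malign_3, and immune labels with Kit are given further on. T22 malignant cells as a whole (70.7 CPM) did not differ from endothelial cells by the 2-fold rule.

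Malignant cells were next set against the stroma. Cells of i_CAF and my_CAF are together called fibroblasts here, although my_CAF held pericyte genes as given above. In the long-term pools T22 malignant cells exceeded the fibroblast labels (i_CAF and my_CAF summed) in 3 of 10 receptors (Erbb3 12.4-fold, Fgfr2 12.0-fold, Kit 57.3-fold) and were below them in 5 (Egfr 2.10-fold, Fgfr1 12.1-fold, Pdgfra, Pdgfrb and Igf1r 6.63-fold), against 16.8% and 16.9% of all genes. Egfr was not called without the top 5% of cells by UMIs or in pools 1 to 4 alone, which left 4 receptors lower. Met was 2.01-fold higher with overlap, and without pool 7 the overlap went and the receptors higher in T22 numbered 4. Met in i_CAF differed between the long-term pools, at 2.23 to 3.48 CPM in pools 1 to 4 and 8.90 to 16.3 CPM in pools 5 to 8. In the long-term pools T127 malignant cells exceeded fibroblasts in Met alone and were below them in 4 (Egfr 61.6-fold, Fgfr2, Pdgfra and Pdgfrb), against 11.0% and 15.5% of all genes. Fgfr1 (ratio 0.739) and Igf1r (ratio 1.71) of T127 cells were within 2-fold of fibroblasts there.

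Some of these relations to fibroblasts differed in the short-term pools. Egfr of T22 malignant cells as a whole was level with the fibroblast labels summed (146 CPM against 154, ratio 0.950, 0.896 to 1.01). By label, i_CAF (185 CPM) lay above Malign_2 (152 CPM) and Malign_3 (91.8 CPM) with no overlap. The mix of labels differed, my_CAF (29.3 CPM of Egfr) being 129 of 420 fibroblasts here and 117 of 843 in the long-term pools. Malign_3 was 218 of 1954 T22 malignant cells here and 907 of 2259 there. The part of this mix was not tested. Met of T22 malignant cells was 9.41-fold higher than in fibroblasts with no overlap (26.5 CPM against 2.82). In T127 malignant cells Igf1r was 2.56-fold higher than in fibroblasts with no overlap (213 CPM against 82.9), and Pdgfra was only 1.38-fold lower (295 CPM against 406). Fgfr1 of T127 cells was again within 2-fold (ratio 0.988, 0.916 to 1.07).

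Against endothelial cells of the long-term pools, T22 malignant cells were higher in 3 of 9 receptors tested (Egfr, Erbb3 and Fgfr2) and lower in 2 (Fgfr1 4.73-fold, Igf1r 4.88-fold), beside 10.7% and 10.0% of all genes. T127 malignant cells were higher than endothelial cells in 3 of 8 (Met 3.10-fold, Igf1r 2.33-fold and Pdgfra) and lower in Kit (243-fold, 172 to 348), beside 8.54% and 8.44% of all genes. Endothelial cells numbered 249, held 1 Pdgfra UMI, 2 Egfr UMIs and no Erbb3 UMI, so that the ratio for Pdgfra was 160.0 with an interval of 28.7 to 6321, that for Egfr in T22 was 35.2 (9.72 to 291), and Erbb3 was at least 5.80-fold higher in T22 with a floor of 3 counts set for the endothelial cells. Without pool 4 the receptors higher in T127 than in endothelial cells numbered 4, with Fgfr1. In the short-term pools Fgfr1 was 2.33-fold higher in T127 malignant than in endothelial cells with no overlap, and in T22 malignant cells it overlapped endothelial cells (ratio 1.30, 0.889 to 1.97).

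Within T22, Malign_2 was higher than Malign_3 in 2 of 9 receptors tested (Fgfr1 and Fgfr2) and lower in 3 (Erbb2, Erbb3 and Kit), beside 8.62% and 7.46% of all genes. Egfr was 1.85-fold higher in Malign_2 without overlap of the pools, and Met was level (ratio 0.893, 0.757 to 1.05). The FGF receptors thus lay with the basal keratin label, and Erbb2, Erbb3 and Kit with the luminal keratin label. Within T127, 0 of 8 receptors tested were higher and 0 lower in Malign_1 than in Malign_0, where 0.885% and 0.469% of all genes were. The 2-fold rule hid a smaller difference, since Met and Pdgfra (1.31-fold) were lower in Malign_1 with no overlap of the long-term pools.

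Within the stroma, i_CAF exceeded my_CAF in 3 of 8 receptors tested, Egfr (7.26-fold, 4.31 to 13.3), Fgfr1 (19.9-fold, 10.1 to 46.2) and Pdgfra, for which my_CAF held 3 UMIs (ratio 80.0, 27.4 to 388). Pdgfrb alone was lower, and the shares of all genes were 5.95% and 3.04%. In the short-term T22 pools Egfr was 6.30-fold, Fgfr1 20.4-fold and Pdgfra 78.3-fold higher in i_CAF, and Pdgfrb was 2.58-fold higher in my_CAF. The 117 my_CAF cells of the long-term pools held only 1 or 2 UMIs of Erbb2, Met and Kit and none of Erbb3 and Fgfr2, so no difference in these was detectable at this depth.

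The short-term pools also allowed the same stromal label to be set side by side between T22 and T127 tumors, a comparison added after seeing the data. In i_CAF, Pdgfrb was 3.09-fold higher in T22 pools (509 CPM against 165, 2.76 to 3.48), and it was the single receptor higher among 8 tested, with 0 lower, where 8.75% of all genes were higher and 3.95% lower. The 9 pericyte and smooth muscle markers, which all passed 10 CPM in the my_CAF label (129 cells in T22 and 8 in T127 pools), summed in i_CAF to 201 CPM (184 to 219.9) in T22 and 84.6 CPM (57.8 to 107) in T127 pools. Most of the higher sum lay in Notch3 (66.4 against 5.19 CPM), Mcam (63.6 against 7.27 CPM) and Cspg4. Kcnj8 and Abcc9 were lower in T22 pools, and Rgs5, a pericyte gene of my_CAF, was at 3.38 and 1.56 CPM. Fgfr1 was 1.88-fold lower (184 CPM against 347) and Pdgfra 1.39-fold lower (309 CPM against 430), both without overlap of the pools but inside the 2-fold limit. In endothelial cells, Fgfr1 was 4.25-fold lower in T22 pools (2.81 to 6.65), with 20.8, 32.8, 46.4 and 32.9 CPM against 129.6, 176, 93.5 and 138 CPM, while Kit was level (ratio 0.885, 0.669 to 1.17). This was 1 of 6 receptors tested, with 0 higher, beside 2.04% of all genes lower and 2.39% higher. Fibroblast markers in these endothelial cells summed to 142 CPM in T22 (47.6 to 361) and 107 CPM in T127 pools (32.9 to 279). The pools of each line were separate libraries, and their median depth per cell differed as given above, so line and library cannot be told apart.

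The share of cells with at least 1 UMI was compared after thinning every cell of at least 3000 UMIs to 3000. In the long-term pools Kit was found in 37.3% of Malign_3 cells (exact binomial 95% interval 34.1 to 40.5), against 80.5% at full depth. Pdgfra was found in 34.9% of Malign_0 and 54.0% of i_CAF cells, Fgfr1 in 36.7% of Malign_0 and 45.3% of i_CAF cells, Egfr in 20.6% of Malign_2 and 31.2% of i_CAF cells, and Pdgfrb in 78.5% of my_CAF cells. As a background, NK cells (median 5248 UMIs per cell, against 15056 in Malign_3) had Egfr in 0 of 252 thinned cells, which allows up to 1.45%, and Pdgfra in 1.19%. Kit was found in 10.7% of these NK cells (7.18 to 15.2), and naive CD8 T cells (median 5232 UMIs) had it in 0 of 68, up to 5.28%. Egfr was found in 0.605% of Malign_0 cells, a share that the number of NK and CD8 T cells is too small to set apart from background. Kit was found in 0.148% of Malign_2 cells (0.0179 to 0.533), below the NK cells, which hold Kit and are no background for it. The 68 naive CD8 T cells are too few to set that share apart from background.

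Kit and Igf1r were also found in immune labels. Kit reached 44.3 CPM in NK cells of the long-term pools, 23.4 in the short-term T22 pools and 139 in the short-term T127 pools (98.2 to 179). In the monocyte label CD14-IL1B it was 24.0, 135 and 57.6 CPM in the same order. B, naive CD8 T and NK cells together had 27.5, 19.9 and 117 CPM. The NK cells are among them, so this is no background for Kit. After thinning, 6.73% of long-term CD14-IL1B cells (4.58 to 9.46) held Kit, beside 0 of 68 naive CD8 T cells, up to 5.28%. In the short-term T22 pools the shares in these labels were 28.7% and 0.781%. Igf1r reached 55.2 CPM in gamma delta T cells of the long-term pools and 170.2 CPM in those of the short-term T22 pools (140.0 to 193), where it exceeded all malignant, fibroblast and endothelial labels of those pools. In B, naive CD8 T and NK cells of the long-term pools together (671 cells) the 9 receptors other than Kit stood at 0 to 4.16 CPM. In the same labels of the short-term T127 pools (201 cells) Igf1r was at 12.2 CPM, Fgfr2 at 10.6, Fgfr1 at 6.53 and Erbb3 at 5.71, and the other receptors but Kit were at 0 to 4.08 CPM. The 42 B.cells among these 201 also carried the epithelial genes Epcam (726 CPM) and Krt8 (844 CPM), and 0 of the 141 NK cells held Fgfr2. Whether these values are lymphocyte levels was not tested.

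Levels of the receptors were mostly higher in the short-term than in the long-term cells of the same label, by a median log2 difference of 0.98 in Malign_0, 1.13 in Malign_1 and 0.86 in both T22 labels, where the median of all genes moved by 0.24 to 0.29. In i_CAF the median moved by -0.04 in T22 pools and 0.39 in T127 pools, both set against the same long-term i_CAF label from pools of both lines. Depth and mitochondrial share moved in the same direction: the median Malign_0 cell had 36205 UMIs in the short-term and 19775 in the long-term pools, and 2.66% and 1.31% of its UMIs were mitochondrial. Their part in the difference was not tested. Time, treatment length and library, and in i_CAF also tumor line, cannot be told apart.

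The long-term pools were divided by number into 2 sets after their values were seen. The counts are therefore a description, and a gene can count in several labels. Pools 5 to 8 lay above pools 1 to 4 with no overlap in 11 of the 26 receptor levels that reached 20 CPM in a set, and the reverse was found in 0. Of the 39957 such levels over all genes in the same 7 labels, 11.1% had pools 5 to 8 above and 10.2% below. Pdgfrb in my_CAF read 457 to 538 CPM in pools 1 to 4 and 765 to 1081 in pools 5 to 8, Kit in Malign_3 read 111 to 150.3 and 191 to 241, Fgfr1 in i_CAF read 148 to 189 and 236 to 273, and Egfr in i_CAF read 86.4 to 131 and 150.1 to 175. Mitochondrial UMIs in Malign_0 (1.01 to 1.13% against 1.41 to 1.59%) and the share of Malign_1 among all cells (9.67 to 10.9% against 3.32 to 4.61%) differed between the same sets. All 3 pairs of pools that shared over 100 barcodes lay within pools 1 to 3. The labels do not say what sets these pools apart, and the part of these values was not tested. The called ratios between T22 and T127 kept their direction in both sets, which the rule of no overlap over all pools fixed in advance.

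**Figure D4:**
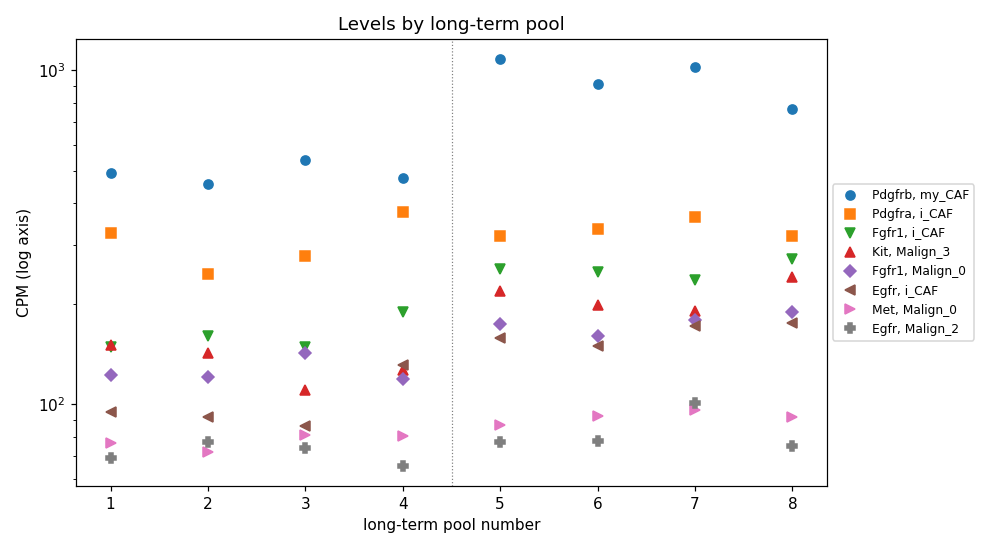
CPM on a log axis of 8 receptor levels in each long-term pool, with the dotted line between pools 4 and 5. Pools 5 to 8 lie above pools 1 to 4 for Pdgfrb in my_CAF, Kit in Malign_3, Fgfr1 and Egfr in i_CAF, and Fgfr1 and Met in Malign_0, and overlap for Pdgfra in i_CAF and Egfr in Malign_2.

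Other genes of the pathway were counted over lists. Of 19 other receptor tyrosine kinases, 14 had enough UMIs, and 5 were higher and 2 lower in T22 than in T127 malignant cells in the long-term pools, where 20.9% of all genes were higher and 16.9% lower, with a median log2 ratio of 0.19. Ntrk2, the receptor of BDNF, was 214-fold higher (64.5 CPM in Malign_2, 0.165 in Malign_0), and Ror2, with 62 UMIs against 0, was at least 52.7-fold higher with a floor of 3 counts set for T127. Ltk (49.7-fold, 2 UMIs in T127, 12.9 to 425) and Fgfr3 (18.5-fold) were low throughout, and Ddr1, a collagen receptor, was 2.81-fold higher (46.2 CPM against 16.4). Axl, a receptor of Gas6, was 5.47-fold lower in T22 (14.6 CPM against 79.8) and Epha2 9.68-fold lower. Axl was highest in i_CAF, at 348 CPM.

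The ligands were divided too. Of 11 EGF family ligands 8 could be compared, 6 of which were lower and 2 higher in T22 (all genes 16.9% and 20.9%), with a median log2 ratio of -2.12. Ereg (103-fold, 258.9 CPM in T127), Btc (24.3-fold, 168 CPM), Hbegf (14.7-fold, 111 CPM), Areg (7.45-fold, 179 CPM) and Tgfa (7.20-fold) are ligands of EGFR, whose RNA was low in those same T127 cells, and Epgn was lower with 1 UMI in T22 (136-fold, 24.3 to 5391). Nrg1 (7.65-fold) and Nrg2 (10.7-fold) of the neuregulins were higher in T22. Outside the tumor cells Areg was highest in regulatory T cells (1090.1 CPM, pools 104 to 3010).

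Of 8 FGF ligands 3 were higher and 2 lower in T22 (all genes 20.9% and 16.9%), with a median log2 ratio of 0.17. Fgf7, a ligand of the epithelial form of FGFR2, was 142-fold higher and stood at 122 CPM in Malign_2, the label with the Fgfr2 RNA, and at 83.6 CPM in i_CAF. Fgf1 was 81.3-fold higher and Fgf9 161-fold higher with 1 UMI in T127 (27.8 to 6443). Fgf2 was 29.2-fold and Fgf18 6.13-fold lower in T22.

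All 3 PDGF ligands that could be compared were higher in T22 (all genes 20.9%), with a median log2 ratio of 2.45: Pdgfc 100.1-fold, Pdgfb 46.3-fold and Pdgfa 2.18-fold. Endothelial cells had 281 CPM of Pdgfb and my_CAF 616 CPM of Pdgfa. Pdgfa was only 1.66-fold higher in T22 in the short-term pools. Of 6 other ligands 2 were higher and 2 lower in T22 (all genes 20.9% and 16.9%), with a median log2 ratio of 0.37. Igf2 was 219-fold and Gas6 23.9-fold higher, and Hgf (19.9-fold, 3 UMIs in T22, 6.67 to 97.4) and Kitl were lower. Kitl stood at 861 CPM in Malign_0, 818 in Malign_1, 599 in Malign_2 and 75.5 in Malign_3, the last being the label with the Kit RNA. Igf1 was highest in i_CAF, at 444 CPM.

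**Figure D5:**
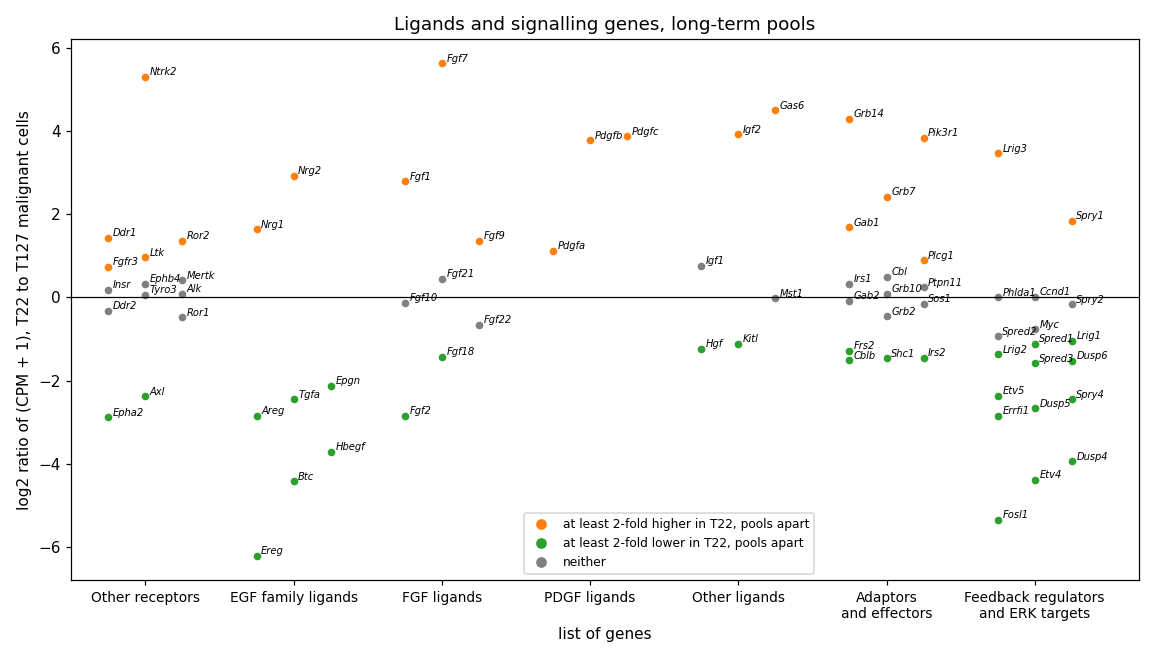
Log2 ratio of T22 to T127 malignant cells in the long-term pools, with 1 CPM added to both sides, for every gene of 7 lists with at least 20 UMIs. Orange and green points are at least 2-fold higher or lower in T22 with pools apart, gray points neither. Of the 8 EGF family ligands 6 lie below 0 and in color, and of the 19 feedback regulators and ERK targets 12 do.

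Of 16 adaptors and effectors 5 were higher and 4 lower in T22, near the shares of all genes (20.9% and 16.9%), with a median log2 ratio of 0.17. Pik3r1, the regulatory subunit of PI3-kinase, was 14.7-fold higher (463 CPM against 31.4) and Grb14, an adaptor that binds the insulin receptor, 26.1-fold higher. Grb7, an ERBB adaptor, was 224-fold higher with 2 UMIs in T127 (61.2 to 1867), and Gab1 and Plcg1 were 3.79-fold and 2.55-fold higher. Shc1, Frs2, Irs2 and Cblb were 3.00-fold, 2.52-fold, 3.08-fold and 3.10-fold lower in T22, whereas Grb2, Sos1 and Ptpn11 lay within 2-fold.

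Of 19 feedback regulators and ERK targets 12 were lower and 2 higher in T22 (all genes 16.9% and 20.9%), with a median log2 ratio of -1.37. Fosl1 (54.6-fold, 154 CPM in T127), Etv4 (58.0-fold), Dusp4 (27.7-fold) and Spry4 (8.97-fold), all transcribed on ERK activity in other settings, were among the lower ones, with Errfi1, an inhibitor of EGFR, at 7.48-fold. Lrig3 (212-fold) and Spry1 (5.73-fold) were higher in T22. Summed over both labels of each line, Ccnd1 and Phlda1 were level in the long-term pools (ratios 1.01 and 1.00). For Ccnd1 this joined 501 CPM in Malign_2 and 2614 in Malign_3, against 1514 in Malign_0 and 1060 in Malign_1. In the short-term pools, where Malign_3 made up 218 of 1954 T22 malignant cells, Ccnd1 was 3.17-fold lower in T22.

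Over the 21 labels of at least 50 cells in the long-term pools, each receptor's log2(CPM + 1) was correlated with that of 11794 genes. The labels share libraries, so these values are a description. The gene most like Egfr was Fibin (r = 0.948), like Fgfr2 Sostdc1 (0.937), like Pdgfra Medag (0.951), like Pdgfrb Rtn2 (0.958) and like Erbb2 Cdc42ep1 (0.936). The patterns of Erbb3 (Zfp750, 0.805) and Kit (Bik, 0.803) were least matched. For Met it was Slc35e4 (0.884), for Fgfr1 Rassf8 (0.903) and for Igf1r Fam78b (0.896).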

How the data were processed

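Tumors were dissociated, hashtagged and pooled, and 3' libraries were made with the 10x Genomics kit. The authors aligned reads to the mouse genome with Cell Ranger 6.0.0 (per the labels), counted introns, filtered cells, removed doublets and assigned the cell labels. The deposited values are whole-number UMI counts per gene and cell, with no normalization. The labels' organism field names human, but genes and mice are of mouse.

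UMI counts were summed per label and pool and scaled to 1000000 (CPM) with Python 3.11.15, numpy 2.4.6, scipy 1.17.1 and pandas 2.3.3, and drawn with matplotlib 3.10.9. A gene counted as higher or lower at 2-fold or more with no overlap of pool ranges, among genes with at least 20 UMIs in both sides together. Log2 ratios had 1 CPM added to both sides. Intervals were exact Poisson, conditional binomial or Clopper-Pearson at 95% and cover counting error only, and a side at 0 was set to 3 counts. Cells could not be assigned to the replicate tumors of a condition, so no test was made. The rule was checked on counts simulated from the Malign_0 profile with counting error only. That check does not cover spread between pools or genes with few UMIs. No doublets were called anew.

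Named were the 10 receptors, the 4 largest ratios and the highest level in each pathway list, and for each receptor the genes most like it, and further genes called in a list were named after their values were seen. The receptors, lists and marker genes were chosen with earlier results of these data known. Comparisons of stroma between short-term T22 and T127 pools, of pools 1 to 4 with 5 to 8, and of labels within each pool were added after seeing the data. Alternatives were other cell and gene filters, another fold, weights of cells or pools, a pseudocount of 10 CPM and each pool left out. Sequences of the receptors were not used here.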

Additional observations from a re-analysis of the deposited data

Results flagged for a closer look

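Of 67 pool levels examined, 3 had 1 pool farther from the others than Dixon's 95% limit for its group allows, and chance alone flags about 1 in 20 groups. Egfr in Malign_2 stood at 101.055 CPM in long-term pool 7 (128 cells), where the other 7 pools lay between 65.6 and 77.7 CPM. Fgfr1 in my_CAF stood at 54.7415 CPM in short-term T127 pool 4, from 4 cells, and at 0 in the other pools. Pdgfrb in endothelial cells stood at 92.9409 CPM in short-term T22 pool 2 (20 cells), where the other pools were at 0, and all 17 UMIs came from 1 of the 88 endothelial cells.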

How the results depend on the processing

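No receptor changed the sign of a called ratio under any alternative. Where pools were left out or their median was taken, the rule of no overlap fixed this in advance. Of 180 log2 ratios, 179 stayed within the spread of the pools with cells of at least 1000 genes only, 164 without the top 5% of cells by UMIs, 165 with the median of the pools, 147 with the mean over cells and 105 with 10 CPM added. Leaving out 1 pool kept 1137 of 1160 within it, pools 1 to 4 alone 74 of 80 and pools 5 to 8 alone 80 of 80. No paired test was made, as each experiment was treated as 1 sample. Labels of the same long-term pool could still be set side by side. All 9 receptors called between T22 and T127 differed in the same direction in 8 of 8 pools. The rule of no overlap fixed this in advance. Erbb2, which was not called, was lower in T22 in 5.

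At a 4-fold limit 1 receptor (Fgfr2) stayed higher in Malign_2 than in Malign_3 and 1 (Pdgfra) in T127 than in endothelial cells. Counts over all genes at that limit were 1281 lower in T22 than in T127 (long-term), 2860 higher and 1734 lower (short-term), 645 higher and 535 lower in Malign_2 than Malign_3, 38 and 9 in Malign_1 than Malign_0, 216 lower in i_CAF than my_CAF, 1293 higher and 1521 lower in T22 and 689 higher in T127 than in fibroblasts, 838 and 873 in T22 and 614 and 760 in T127 than in endothelial cells. Genes lower in Malign_1 than Malign_0 numbered 62, 32 without the top 5% of cells and 70 to 94 with 1 long-term pool left out, the most without pool 3.

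Without the top 5% of cells, Erbb2 (short-term, T22 against T127) and Egfr (T22 against fibroblasts) were no longer called, Igf1r was called lower in Malign_2 than Malign_3 and Fgfr1 higher in T127 than in endothelial cells. In pools 1 to 4 alone Egfr was likewise not called and Met was called higher in T22 than in fibroblasts. The cause of these changes was not tested. Depth limits comparisons with my_CAF and endothelial cells, where several receptors rest on 0 to 3 UMIs.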

Other observations

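Plasmacytoid dendritic cells (pDC), named by the deposited label and by Siglech at 910.0 CPM (in 132 of 136 cells), held Egfr and Erbb3 RNA in the short-term T127 pools, where the malignant cells had little. Erbb3 was at 30.4 CPM (32 UMIs, pools 25.2 to 44.0) in 27 cells, 19.9% (13.5 to 27.6), against 0.148 CPM in the T127 malignant cells. Egfr was at 39.9 CPM (42 UMIs) in 33 cells, 24.3%, against 4.40 CPM in the malignant cells. Of the epithelial genes, Epcam was at 39.0 CPM in 34 of these pDC (25.0%) and Krt8 at 14.3 CPM. The 42 cells labelled B.cells in the same pools had 726 CPM of Epcam and 844 CPM of Krt8. Of the receptors found in the T127 malignant cells, Erbb2 (13.9 CPM there) was at 0 UMIs in the pDC and Pdgfra (295 CPM there) at 1.90 CPM, while Fgfr1 was at 52.3 CPM in 31.6% and Igf1r at 27.6 CPM in 19.9% of pDC. Egfr was at 177 CPM in i_CAF of the same pools. The 170 pDC of the long-term pools had 14.0 CPM of Egfr and 9.69 of Erbb3, and the 35 of the short-term T22 pools had 26.8 CPM of Erbb3 from 9 UMIs. The gene and the label were chosen after their values were seen.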
